A study of Homo sapiens with 4 samples.

Results

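Argonaute proteins hold a mature microRNA and use its seed, bases 2 to 8, to find matching messages. TNRC6 proteins, also known as GW182 proteins, bind Argonaute through glycine-tryptophan repeats and bring in the deadenylases that shorten the poly(A) tail of the bound message. AGO2 is the human Argonaute best known for cutting a fully matched target, the step that an siRNA depends on, while a microRNA with partial pairing can act through any of the Argonautes. Both agents used here, an siRNA and a microRNA mimic, therefore work through these proteins. The genes described are AGO1, AGO2, AGO3, AGO4, TNRC6A, TNRC6B and TNRC6C, chosen by name. All 7 have a row among the 19734 gene rows of the deposited table. No rule on their values was used, but earlier results of these data were known when they were chosen.

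RNA from human BE(2)C neuroblastoma cells that carry a MYCN open reading frame (BE(2)C:MYCN-ORF in the labels) was polyA-selected and sequenced 48 hours after transfection. The 4 combinations were siMYCN with let-7a, siMYCN with miRCon, siCon with let-7a, and siCon with miRCon, where siMYCN is an siRNA against MYCN, siCon its control, let-7a a mimic of that microRNA and miRCon the control mimic. Each combination has 1 library, so no group has a replicate, and all cells share the MYCN open reading frame. Values are back-transformed from natural logs and resemble TPM in their near-equal totals (TPM-like values). TPM are scaled by transcript length and library. The length scaling could not be checked here, so comparisons of levels between genes assume it.

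The libraries hold the same total of TPM-like values within 1%, between 855610.5 and 861823.8, with 14786 to 15290 genes above 0; read depth is unknown. Transcripts of the mitochondrial genome made up 29.3% and 28.4% of the total in the siMYCN libraries (with let-7a and with miRCon), and 32.1% and 31.7% in the siCon libraries. MYCN was at 1197.2 and 1238.3 in the siMYCN libraries, against 1432.8 and 1448.5 in the siCon libraries, lower in both pairs, and these values can include the introduced reading frame. LIN28B, an established let-7 target, was at 55.5 with let-7a, against 118.5 with miRCon, in siMYCN cells, and at 96.5 against 157.2 in siCon cells. All 10 noradrenergic neuroblastoma markers were above the expression minimum, a mean TPM-like value of 5. Of the markers of other cell types, 0 of 5 blood and 1 of 5 epithelial genes reached it, and PTPRC, CD3E, HBB and CDH1 were at 0.24 or less in every library. Among 6 fibroblast genes 5 reached it (sums of 365.9, 420.3, 380.8 and 404.8 in the order of the groups above), while COL1A2 was at 0.185 or less. The neuroblastoma markers summed to 2919.8, 2068.5, 2946.9 and 2673.1, lowest with siMYCN and miRCon, the library in which AGO3 was highest and TNRC6A and TNRC6B lowest. Mean levels of single markers ran from 8.7 (TH) to 795.0 (CHGA), so the sum is weighted towards the abundant ones and need not hold for each marker. The part of such cells, or of these markers, in the results was not tested.

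The mature let-7a sequence is given from RefSeq (GRCh38.p14), with the seed in capitals, because its seed decides which of the 7 genes hold a matching site. The same mature RNA comes from 3 genes, and 11 mature human microRNA names share the seed.

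hsa-let-7a-5p: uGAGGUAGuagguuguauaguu

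Matches to that seed were searched in the longest annotated 3' UTR of each gene, on the sense strand, as CTACCTC (7mer-m8), TACCTCA (7mer-A1) or CTACCTCA (8mer, which contains both shorter words and was counted once). All 4 Argonaute genes held 2 or 3 such matches and no TNRC6 gene (0 of 3) held any. AGO1 had a 7mer-A1 and a 7mer-m8, AGO2 had 1 of each kind, AGO3 had an 8mer and 2 7mer-A1 matches, and AGO4 had 2 7mer-A1 matches. A 7mer-A1 matches bases 2 to 7 of the mimic and has an A opposite base 1, but does not match base 8. Of 8929 tested genes with a 3' UTR, 19.0% held at least 1 match and 4.41% an 8mer. The 7 genes have long 3' UTRs, from 2420 bases in TNRC6A to 16755 in AGO3 against a median of 1506, and among the 2889 tested genes with a 3' UTR of at least 2420 bases, 36.2% held a match and 8.86% an 8mer. The Argonaute 3' UTRs are longer than that cut, at 10921 bases in AGO1, 11888 in AGO2, 16755 in AGO3 and 4285 in AGO4. The 36.2% is therefore not matched to their length, and longer 3' UTRs have more room for a match. Per kilobase, the 7 genes together held 0.159 matches and all tested genes 0.11. TNRC6B has no match in 12567 bases.

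The matches of the 3 Argonaute genes on chromosome 1 follow, so that the seed match can be read against the mimic. Sequences are from GENCODE 29 transcripts (GRCh38, plus strand), with the matching bases in capitals. All lie in 3' UTR exons, and the bases left of the capitals face the rest of the mimic.

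AGO1 7mer-A1, chr1:35919608-35919630: aggcagaacgctgtTACCTCAct

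AGO1 7mer-m8, chr1:35920671-35920700: ctccttttctccttattcctcCTACCTCcc

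AGO3 7mer-A1, chr1:36056017-36056046: gtctaacccttttaatgccttTACCTCAag

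AGO3 7mer-A1, chr1:36059896-36059925: cttttacagtttgaaaaagggTACCTCAgc

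AGO3 8mer, chr1:36069068-36069097: gtggtaatacctgtcctcacCTACCTCAct

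AGO4 7mer-A1, chr1:35853824-35853853: tgatgcactggactgaattttTACCTCAat

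AGO4 7mer-A1, chr1:35855655-35855684: ttttttttttttttttgcaaaTACCTCAct

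These sites lie at different depths of the 3' UTR. The closest to a stop codon is the 7mer-A1 of AGO1, which begins at base 15, followed by a 7mer-A1 of AGO4 at base 240 and of AGO3 at base 293. The 8mers are far from it, at base 13343 in AGO3 and base 9723 in AGO2. Shorter annotated forms differ: at least 1 site is present in 2 of 2 coding transcripts of AGO1, 1 of 2 of AGO2, 2 of 3 of AGO3 and 1 of 1 of AGO4. Which forms BE(2)C cells use cannot be read from gene-level values. A match is a description of sequence and does not show that let-7a acts there.

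**Figure D1:**
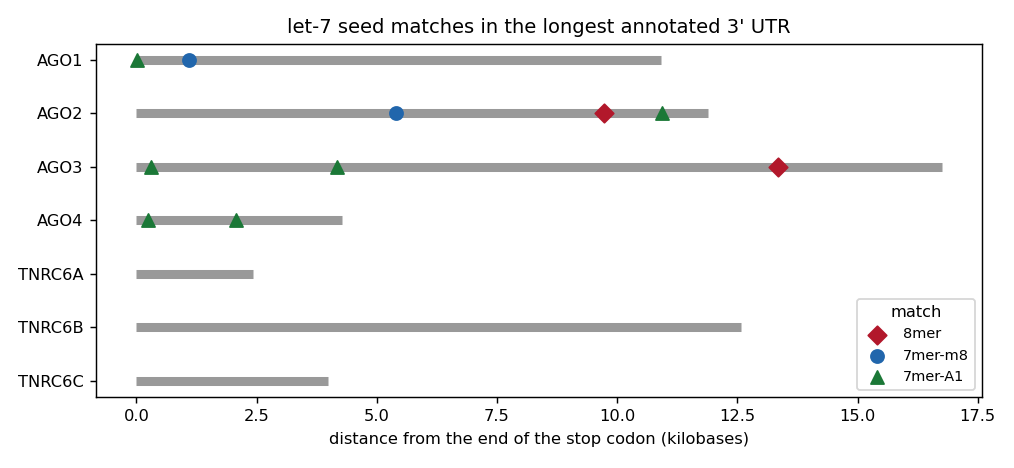
Position of let-7 seed matches (symbols, by kind) along the longest annotated 3' UTR (grey bars) of the 7 genes, as distance from the end of the stop codon in kilobases. Each Argonaute gene carries 2 or 3 matches and the TNRC6 bars carry 0.

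AGO1, AGO3 and AGO4 are neighbours on chromosome 1, all on the plus strand, in the order AGO4 (35808172 to 35857890), AGO1 (35869808 to 35930528) and AGO3 (35930718 to 36072500), within 264329 bases. The gap between AGO1 and AGO3 is 189 bases. AGO2 lies on chromosome 8 (140520156 to 140635619, minus strand), TNRC6A on chromosome 16 (24610209 to 24827632, plus), TNRC6B on chromosome 22 (40044817 to 40335808, plus) and TNRC6C on chromosome 17 (77959240 to 78108835, plus). The paralogs shared no 50-base word (0 in each longest transcript) with each other. AGO3 shared 1.36% of its 50-base words with other genes, AGO4 0.269% and TNRC6B 0.0391%, and the other 4 genes 0. Strand use in counting is not given in the sources used here, and AGO1, AGO2, AGO3, TNRC6A, TNRC6B and TNRC6C each overlap at least 1 annotated gene on the opposite strand, whose reads could then not be told apart.

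Of the 4 Argonautes AGO2 was the most abundant message, and of the 3 TNRC6 genes TNRC6A was. The mean TPM-like level over the 4 libraries was 62.1 for AGO2, 48.2 for TNRC6A, 26.0 for TNRC6B, 19.9 for AGO1, 16.5 for TNRC6C, 9.87 for AGO3 and 5.67 for AGO4. Each of the 4 libraries gave this same order. Over the libraries the ranges of AGO2 (59.3 to 65.1) and TNRC6A (43.3 to 52.9) did not overlap, nor did those of AGO3 (7.95 to 13.5) and AGO4 (4.46 to 6.45). Those of TNRC6B (21.5 to 30.6) and AGO1 (18.0 to 22.5) overlapped, as did those of AGO1 and TNRC6C (15.0 to 19.0). These ranges mix the treatments, since no combination was repeated. In bulk RNA, fewer cells with a message and less of it per cell cannot be told apart. AGO2 was above 76.9% of the tested genes and AGO4 above 2.62%, close to the minimum.

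**Figure D2:**
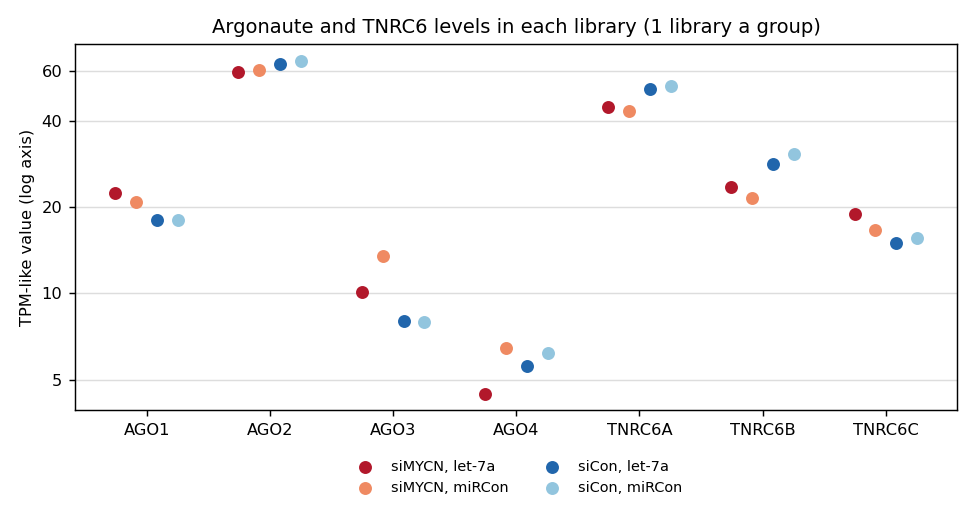
TPM-like value (log axis) of each gene in the 4 libraries, 1 point a library. AGO2 stays between 59.3 and 65.1, while AGO3 ranges from 7.95 to 13.5 and AGO4 from 4.46 to 6.45.

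PIWI proteins, the germline relatives of the Argonautes, were close to 0. The highest single value of PIWIL1, PIWIL2, PIWIL3 and PIWIL4 was 0.698, for PIWIL1.

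With let-7a, AGO4 was lower in both pairs, and AGO1 was higher with siMYCN and nearly level with siCon (log2 fold change 0.007). AGO2 was lower in both as deposited (with siMYCN 0.007 on the log2 scale under median ratios). Of all tested genes, 33.5% were lower in both pairs and 22.6% higher in both. None of the 7 messages passed the test. Effects are log2 fold changes of (value + 1), let-7a over miRCon, fitted over both siRNA states with limma in an additive model of 9324 genes, in which the departure from additivity stands in for replicate error (1 residual degree of freedom). By this test with Benjamini-Hochberg adjustment, 0 of the 7 genes were called higher or lower at an adjusted p under 0.05. Among all tested genes 0% were called higher and 0% lower, and 697 (7.48%) had an unadjusted p under 0.05, among them 0 of the 7. Adjusted p-values of the 7 ran from 0.764 to 0.988 (limma). No member was at least 1.5-fold higher or lower in both pairs (0 of 7), a rule that 0.204% of tested genes met upward and 0.257% downward.

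AGO4, the least abundant Argonaute, was lower with let-7a in both pairs. Its level was 4.46 with let-7a, against 6.45 with miRCon, in siMYCN cells, and 5.56 against 6.20 in siCon cells. The let-7a library was the lower of its pair each time, and the siMYCN one the lowest of the 4. The log2 fold changes were -0.45 with siMYCN and -0.13 with siCon, and over both -0.29 ± 0.22 (SE), with a 95% interval from -0.85 to 0.27 and an adjusted p of 0.764 (limma).

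AGO3, which like AGO2 has the residues for cutting RNA, had a lower value with let-7a in siMYCN cells and a similar one in siCon cells. It was at 10.1 with let-7a, against 13.5 with miRCon, in siMYCN cells, and at 7.99 against 7.95 in siCon cells. The change was -25.4% in the first pair and 0.502% in the other. The log2 fold changes were -0.39 and 0.006, and the difference between them, -0.40, has no test because each rests on 1 library a side. Over both pairs the effect was -0.19 ± 0.19 (SE; 95% interval -0.67 to 0.29; adjusted p = 0.816, limma).

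AGO2 was nearly level between mimics, although it holds 3 seed matches. It was at 59.3 with let-7a, against 60.5 with miRCon, in siMYCN cells, and at 63.4 against 65.1 in siCon cells. These are changes of -1.92% and -2.71%, and the effect over both was -0.033 ± 0.089 (SE; 95% interval -0.26 to 0.19).

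AGO1, a non-cutting Argonaute, was at 22.5 with let-7a, against 20.8 with miRCon, in siMYCN cells, and at 18.1 against 18.0 in siCon cells. Its effect was 0.058 ± 0.13 (SE; 95% interval -0.28 to 0.39). So of the 4 genes with matches, AGO4 was lower in both pairs, AGO2 in both except with siMYCN under median ratios, AGO3 in 1 and AGO1 in neither. The 317 tested genes with 2 or 3 matches had median let-7a effects of -0.116 with siMYCN and -0.075 with siCon, and the 7231 genes with none had -0.033 and -0.01. The 4 Argonautes had medians of -0.209 and -0.016. Of the genes with 2 or 3 matches 45.1% were lower in both pairs, against 38.8% of genes with 1 match and 32.0% of genes with none. These groups were not matched for 3' UTR length, and the genes with 2 or 3 matches include the 4 Argonautes.

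The TNRC6 genes, which have no match, had small let-7a effects of opposite sign in the siRNA states. TNRC6A was at 45.0 with let-7a, against 43.3 with miRCon, in siMYCN cells, and at 51.7 against 52.9 in siCon cells. TNRC6B was at 23.6 against 21.5 in siMYCN cells, and at 28.3 against 30.6 in siCon cells. TNRC6C was at 19.0 against 16.7 in siMYCN cells, and at 15.0 against 15.6 in siCon cells. For all 3 the let-7a library was the higher of the pair with siMYCN and the lower with siCon, with differences between -7.38% (TNRC6B with siCon) and 13.7% (TNRC6C with siMYCN). The effects over both pairs were 0.01 ± 0.098 for TNRC6A, 0.009 ± 0.13 for TNRC6B and 0.061 ± 0.15 for TNRC6C (SE, limma).

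**Figure D3:**
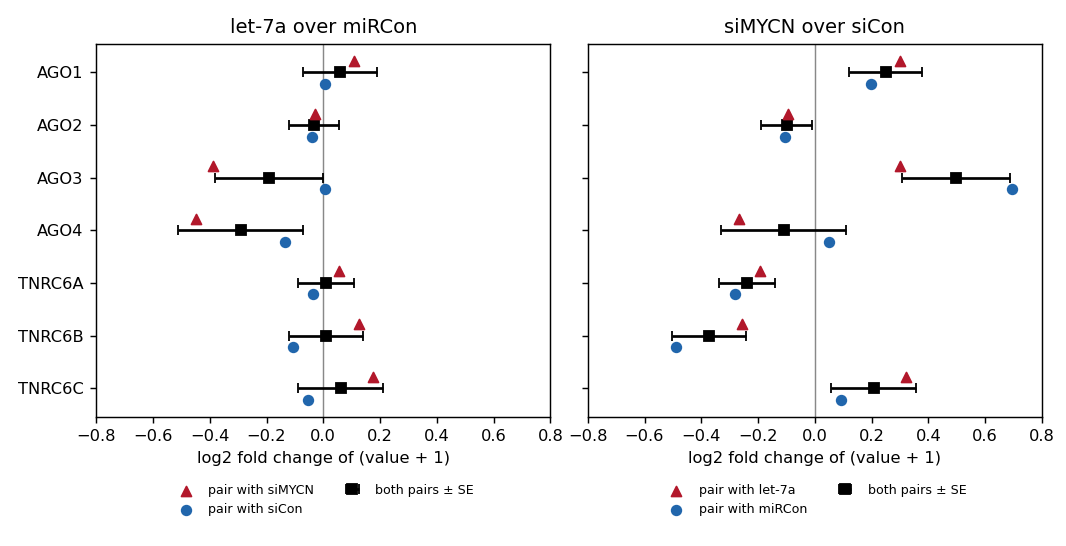
Log2 fold change of (value + 1) for let-7a over miRCon (left) and siMYCN over siCon (right) in each pair of libraries (coloured) and over both pairs (squares, bars are the SE of the additive limma model). AGO3 and AGO4 have the lowest let-7a effects, at -0.19 and -0.29, and AGO3 and TNRC6B the furthest siMYCN effects, at 0.50 and -0.37.

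With siMYCN the genes went both ways within each family, and again none passed the test over all genes. Of the 7, 3 were higher in both pairs (AGO1, AGO3 and TNRC6C), 3 lower in both (AGO2, TNRC6A and TNRC6B), and AGO4 differed in sign as deposited (its value with miRCon became -0.013 and -0.006 under the rescalings by median ratios and to an equal nuclear sum). Of all tested genes, 43.2% were higher in both pairs and 27.4% lower in both, as deposited. Limma called 0 of 7 at an adjusted p under 0.05, where it called 2.07% of all tested genes higher and 1.36% lower. The split of those calls depended on scaling, with 193 higher and 127 lower as deposited, 332 and 408 under median ratios, and 199 and 260 with an equal nuclear sum. At an unadjusted p under 0.05 it had 2 of the 7, AGO3 and TNRC6B, against 26.4% of all tested genes. At least 1.5-fold in both pairs were 0 of 7, against 2.85% of tested genes upward and 1.61% downward. The median absolute siMYCN effect was 0.238 over the 7 and 0.194 over all tested genes.

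AGO3 had the largest siMYCN effect of the 7. It was at 13.5 with siMYCN, against 7.95 with siCon, among miRCon libraries, and at 10.1 against 7.99 among let-7a libraries. The siMYCN library was the higher of each pair, by 69.7% and 25.9%. The effect was 0.50 ± 0.19 (SE; 95% interval 0.01 to 0.98; adjusted p = 0.181, limma).

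AGO1, which begins upstream of AGO3 on the same strand, was also higher. It was at 20.8 with siMYCN, against 18.0 with siCon, with miRCon, and at 22.5 against 18.1 with let-7a. The siMYCN library was again the higher of each pair, with an effect of 0.25 ± 0.13 (SE; 95% interval -0.08 to 0.58; adjusted p = 0.291, limma). AGO4, the third gene of that cluster, was at 6.45 against 6.20 with miRCon and at 4.46 against 5.56 with let-7a, with an effect of -0.11 ± 0.22 (SE). The 3 neighbours thus had values of both signs. AGO2 was at 60.5 against 65.1 with miRCon and 59.3 against 63.4 with let-7a, an effect of -0.099 ± 0.089 (SE; adjusted p = 0.518, limma).

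TNRC6B and TNRC6A, the scaffolds with the higher levels, were lower with siMYCN. TNRC6B was at 21.5 with siMYCN, against 30.6 with siCon, with miRCon, and at 23.6 against 28.3 with let-7a. The changes were -29.6% and -16.8%, and the effect -0.37 ± 0.13 (SE; 95% interval -0.70 to -0.05; adjusted p = 0.148, limma). TNRC6A was at 43.3 against 52.9 with miRCon and at 45.0 against 51.7 with let-7a, an effect of -0.24 ± 0.098 (SE; 95% interval -0.49 to 0.01; adjusted p = 0.201, limma). For both genes the siMYCN library was the lower of each pair, as it was for AGO2.

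TNRC6C, the least abundant scaffold, lay on the other side. It was at 16.7 with siMYCN, against 15.6 with siCon, with miRCon, and at 19.0 against 15.0 with let-7a, an effect of 0.21 ± 0.15 (SE; adjusted p = 0.418, limma). RefSeq promoter sequences (250 bases before the start to 50 after, GRCh38.p14) were read for 6 genes, and AGO2 was not analysed here. Among the 6, only TNRC6C held the palindromic E-box CACGTG, the word that MYC-family proteins bind. The word is at -105 relative to the start in 1 of its 4 listed promoters, while the other genes have 1 listed promoter each. It is present in 13.3% of the 7256 tested genes with a promoter in the table. A match does not show binding.

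The paralogs were summed on the assumption that the values are per length. The Argonaute sum was 96.4 with siMYCN and let-7a, 101.2 with siMYCN and miRCon, 95.0 with siCon and let-7a and 97.3 with siCon and miRCon. It was thus 4.04% (miRCon) and 1.4% (let-7a) higher with siMYCN, a log2 ratio of 0.039 over both pairs that became -0.025 and -0.02 when the libraries were rescaled by median ratios or to an equal nuclear sum. The TNRC6 sum was 87.5, 81.5, 94.9 and 99.1 in the same order of groups. The difference with siMYCN was -17.7% among miRCon libraries and -7.78% among let-7a libraries, a log2 ratio of -0.20 over both pairs (-0.26 under both rescalings). TNRC6 messages per Argonaute message came to 0.909 and 0.805 in the siMYCN libraries (let-7a, miRCon), against 0.999 and 1.02 in the siCon libraries. This ratio does not depend on how the libraries are scaled. With let-7a the Argonaute sum differed by -4.81% in siMYCN cells and -2.34% in siCon cells, a log2 ratio of -0.053 over both (-0.026 under median ratios), and the TNRC6 sum by 7.4% and -4.18%. These sums and ratios were not tested.

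The mix of paralogs also differed between siRNA states, and this was not tested. AGO2 made up 61.6% and 59.7% of the Argonaute sum with siMYCN (let-7a, miRCon), against 66.7% and 66.9% with siCon. AGO1 made up 23.4% and 20.6%, against 19.1% and 18.5%. AGO3 made up 10.4% and 13.3%, against 8.41% and 8.17%, and AGO4 4.62% and 6.37%, against 5.85% and 6.37%. Within the TNRC6 sum, TNRC6C made up 21.6% and 20.4%, against 15.8% and 15.7%. TNRC6B made up 26.9% and 26.4%, against 29.8% and 30.9%, and TNRC6A 51.4% and 53.2%, against 54.4% and 53.4%. The shares of AGO4 overlapped between the siMYCN and siCon libraries, and those of TNRC6A nearly met (53.2% against 53.4%). The other shares stood apart. How often the levels of other genes do so was not counted, so this is not read as a result. Shares of a sum are tied to each other, so these are not separate observations.

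**Figure D4:**
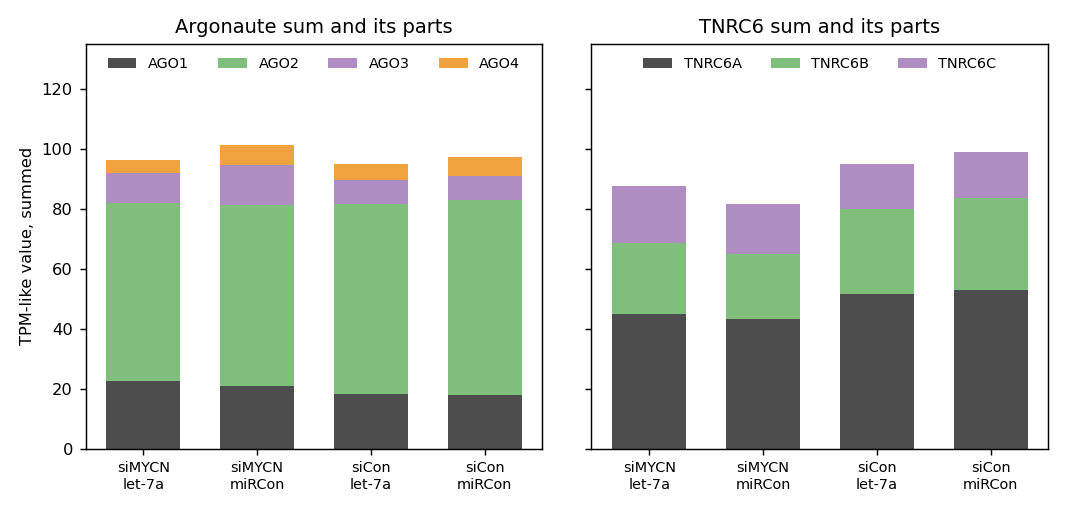
Stacked TPM-like values of the 4 Argonautes (left) and the 3 TNRC6 genes (right) in each library. The Argonaute sum lies between 95.0 and 101.2 throughout, and the TNRC6 sum at 81.5 and 87.5 with siMYCN and at 94.9 and 99.1 with siCon.

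Both treatments together, siMYCN with let-7a over siCon with miRCon, compare 2 libraries, and this contrast was not tested. The higher messages were AGO1 (25.0%), AGO3 (26.5%) and TNRC6C (21.7%). The lower ones were AGO2 (-8.93%), AGO4 (-28.1%), TNRC6A (-14.9%) and TNRC6B (-23.0%). On the log2 scale AGO3 stood at 0.305, where the sum of the single treatments was 0.70, and AGO4 at -0.40, where that sum was -0.085. TNRC6B stood at -0.36 against -0.595 for the sum. The departures from the sum, -0.396 for AGO3, -0.315 for AGO4 and 0.23 for both TNRC6B and TNRC6C, are the same quantities as the differences between the let-7a effects. Their median absolute size was 0.229 over the 7 genes and 0.192 over all tested genes, 31.8% of which departed by more than 0.3.

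AGO3 was the only member whose log2 level ranged over at least 0.5 across the libraries (0.69). By distance between centred log2 profiles over the 4 libraries, the nearest of 5672 genes with a mean of at least 20 were TEAD3 (distance 0.0389) and MORN2 (0.0776). TEAD3 was at 31.7 and 41.2 in the siMYCN libraries (let-7a, miRCon), against 24.6 and 25.0 in the siCon libraries. With 4 libraries many genes can lie this near.

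The proteins that act beside Argonaute and TNRC6 were read as lists from general knowledge. For let-7a, 0 of 64 tested partner genes were called (limma, adjusted over all genes; 3 had an unadjusted p under 0.05). For siMYCN 3 of 64 were called higher and 0 lower, where 2.07% of all tested genes were called higher and 1.36% lower, so the count is read as single genes and not as a result about the partners. CNOT7, a catalytic deadenylase of the CCR4-NOT complex that TNRC6 recruits, was at 119.9 and 113.2 in the siMYCN libraries (let-7a, miRCon), against 82.0 and 80.4 in the siCon libraries, and rose by 0.515 ± 0.079 (SE; adjusted p = 0.0436, limma). LSM7, of the ring that binds deadenylated ends before decapping, was at 151.8 and 152.5, against 95.4 and 91.4, and rose by 0.70 ± 0.076 (adjusted p = 0.0289, limma). HSP90AA1, a chaperone that holds Argonaute open for loading, was at 1088.1 and 1120.0, against 679.3 and 782.4, and rose by 0.60 ± 0.06 (adjusted p = 0.0278, limma). These 3 were called under a mean of at least 20 and under both rescalings as well. Partner genes called there numbered 7 (6 higher, 1 lower), 9 (5 higher, 4 lower under median ratios) and 5 (3 higher, 2 lower). Over all tested genes limma called 506 of 5672, 740 of 9311 and 459 of 9319 in the same settings. CNOT7, LSM7 and HSP90AA1 were not called with no filter or without a trend, where limma called 0 of all genes.

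By list, the 15 tested deadenylation genes had 1 called higher and 0 lower with siMYCN, 5 above and 10 below 0, and a median of -0.043, beside 0.056 over all tested genes. The 18 decapping and decay genes had 1 called higher and 0 lower, 11 above and 7 below 0, and a median of 0.059 (-0.003 under median ratios, 0.003 with an equal nuclear sum). The 12 loading chaperones had 1 called higher and 0 lower, 4 above and 8 below 0, and a median of -0.155. The 17 partners and modifiers had 0 called, 11 above and 6 below 0, and a median of 0.043 (-0.021 and -0.015 under the same rescalings). Over all tested genes, 58.3% were above 0. With let-7a the medians were 0.001, 0.012, -0.045 and -0.048, in the same order of lists, beside -0.031 over all tested genes. DICER1, which hands microRNAs to Argonaute, was at 27.1 with let-7a, against 50.1 with miRCon, in siMYCN cells, and at 47.2 against 60.5 in siCon cells; its let-7a effect of -0.61 ± 0.15 (SE) was not called over all genes (adjusted p = 0.663, limma), nor was its siMYCN effect of -0.52 ± 0.15 (SE; adjusted p = 0.106, limma).

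**Figure D5:**
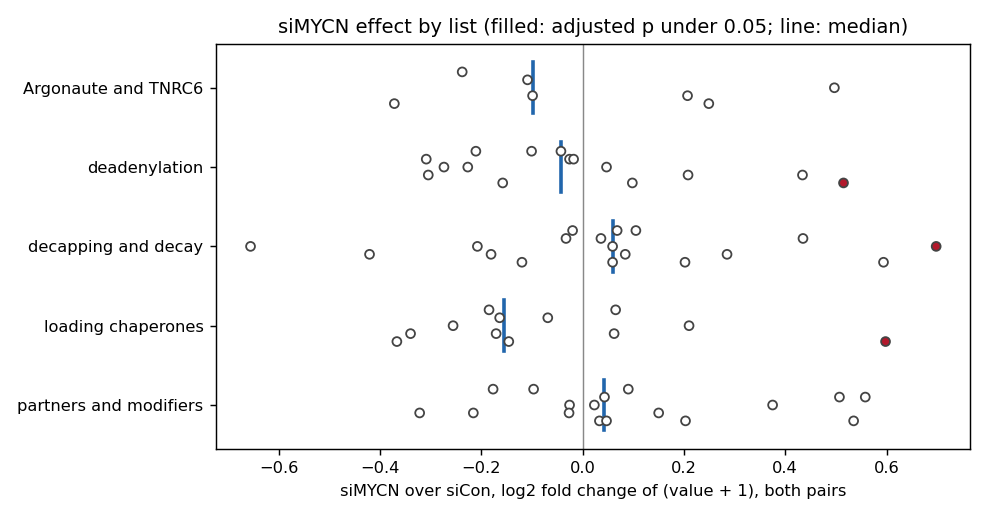
siMYCN effects (log2 fold change of value + 1, siMYCN over siCon, both pairs) of the 7 genes and of 4 partner lists, 1 point a gene, filled where limma's adjusted p is under 0.05, with the list median as a line. The 7 genes have no filled point and span -0.37 to 0.50; CNOT7, LSM7 and HSP90AA1 are the 3 filled points.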

How the data were processed

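The authors deposited 1 table of natural log values, 19837 rows by 4 libraries. The base was read from the values: exp(x) - 1 gives nearly equal totals, between 855810.7 and 862049.0, and base 2 gives 143211.1 to 147587.8. HISAT 0.1.6, Salmon 0.3.2 and GRCh38 appear, without their roles, per the submitters' processing notes; annotation and filters, not given in the sources used here, are unknown. Such values keep no depth, so no counting error is given. The 11 vector and 92 spike-in rows were set apart, and 28 rows with names turned into dates were not repaired. Genes with a mean of at least 5 entered limma 3.58.1 (R 4.3.3) on log2(value + 1), siRNA and mimic additive, trended, 4.3 prior degrees of freedom, Benjamini-Hochberg over all 9324 genes; all 7 members entered, through their mean over all libraries. Each SE assumes additive effects and borrows most of its information from the remaining genes. The fit was run on simulated additive data with equal noise in all genes and known let-7a changes. Such data cannot show how departures from additivity affect the fit. Members and lists were chosen with earlier results of these data known. Named genes were the members, in each partner list the 2 tested genes with the highest and the 2 with the lowest smaller change of both pairs, per treatment (the text gives some of these), DICER1, and the 2 nearest profiles of any member ranging over 0.5. Alternatives were other pseudocounts (0.1 and 5), filters, scalings, variance models, folds, single pairs and another transcript choice for seed matches. GENCODE 29 and RefSeq tables supplied sequences. Python 3.11.15 and pandas 2.3.3 were used.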

Additional observations from a re-analysis of the deposited data

Results flagged for a closer look

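Effects of opposite sign in the pair with the other agent and the pair without it were found for 5 results, each from 1 library a side, so the differences were not tested. The let-7a effect with siMYCN minus that with siCon was -0.396 for AGO3, 0.089 for TNRC6A, 0.232 for TNRC6B and 0.229 for TNRC6C (log2). The siMYCN effect with let-7a minus that with miRCon was -0.315 for AGO4, whose effects had the same sign once the libraries were rescaled (with miRCon -0.013 and -0.006). Over all tested genes, 56.0% had let-7a effects of the same sign in both pairs and 70.6% siMYCN effects, so opposite signs were common.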

How the results depend on the processing

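No member was called for either treatment (0 of those tested) under any of the 8 alternative limma settings, and no member's effect over both pairs changed sign under them; at a mean of at least 20 only AGO2, TNRC6A and TNRC6B were tested. The lowest adjusted p of any member over these settings was 0.0963, for the siMYCN effect of TNRC6B. In single pairs, rescaling turned the let-7a value of AGO2 with siMYCN to 0.007 (median ratios) and the siMYCN value of AGO4 with miRCon to -0.013 (median ratios) and -0.006 (equal nuclear sum). With no filter and without a trend, limma called 0 of all genes for siMYCN (2457 and 2221 at an unadjusted p under 0.05), and with median ratio scaling 740. The summed Argonaute level moved with scaling: its siMYCN effect was -0.025 with median ratios and -0.02 with an equal nuclear sum, against 0.039 as deposited, and its let-7a effect -0.026 with median ratios, against -0.053; the cause was not tested. Partner genes called for siMYCN numbered 0 with no filter, 7 of 51 at a mean of at least 20, 9 of 64 with median ratios (5 higher and 4 lower, against 3 and 0) and 5 of 64 with an equal nuclear sum. Over all tested genes the calls in the last 3 settings were 506 of 5672, 740 of 9311 and 459 of 9319, against 320 of 9324 as deposited. Calls thus also rose among all genes, and the partner counts are not read as a result about the partners. Median ratios moved the median siMYCN effect of all genes to -0.005, against 0.056. Of 259 recomputed values 246 kept their direction and side of the threshold or moved less than their spread, and 13 moved further, 4 of them single pairs of AGO3. No paired analysis was possible because the labels give no replicate numbers and each combination has 1 library. Unknown depth limits AGO4 and AGO3 most, as the least abundant.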

Other observations

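Some partner genes named by the rule on change in both pairs were not called. DCP2, the enzyme that removes the cap, was at 22.2 and 20.9 in the siMYCN libraries (let-7a, miRCon), against 32.2 and 37.1 in the siCon libraries, a siMYCN effect of -0.66 ± 0.13 (SE; adjusted p = 0.0605, limma). It was called lower under a mean of at least 20 and under both rescalings, with adjusted p-values from 0.0287 to 0.0478 (limma). LSM6, also of the LSM ring, was at 13.8 with let-7a, against 24.9 with miRCon, in siMYCN cells, and at 13.7 against 22.3 in siCon cells. Its let-7a effect was -0.74 ± 0.14 (SE, adjusted p = 0.663, limma). FXR2 was at 50.9 and 50.9 in the siMYCN libraries, against 35.4 and 33.2 in the siCon libraries, a siMYCN effect of 0.56 ± 0.1 (SE; adjusted p = 0.0552, limma). FXR2 was called higher at a mean of at least 20 and with median ratios (adjusted p = 0.0393 and 0.0413, limma).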
